A study of Mus musculus with 4 samples.

Results

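The Myc, Max and Mxd network is a family of transcription factors that pair through a shared helix-loop-helix zipper and bind DNA at E-boxes. All 7 genes listed for it (Myc, Max, Mxd4, Mxi1, Mnt, Mga and Mlx) were found by symbol among the 12020 genes with usable counts, and all 7 passed the filter on low counts. Another 4 network genes in the table (Mxd1, Mxd3, Mlxip and Mlxipl) are described beside them, while no row was found for Mycn or Mycl. RNA was sequenced from natural killer T (NKT) cells, T lymphocytes with a semi-invariant receptor for lipids held by CD1d. The cells were sorted as GFP-high from C57BL/6 mice aged 10 to 12 weeks that carried a Va14 receptor transgene and 1 GFP allele at the Cxcr6 locus (Va14 Tg.cxcr6gfp/+). All 4 libraries share this genotype and the label liver. The 2 resting libraries came from cells kept unstimulated, and the 2 tetramer libraries from cells stimulated on plates coated with mCD1d-PBS57 tetramers. How long the cells were stimulated was not given in the sources used here. A receptor transgene fixes the receptor's alpha chain, so these cells stand for NKT cells of transgenic mice. No label names the mice behind each library, and every p below therefore reflects variation among libraries that may be technical.

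As background, MYC activates genes as a pair with MAX, and the pair binds the E-box CACGTG near the start of many genes of growth, ribosome assembly and metabolism. The MXD proteins (MXI1 is one of them), MNT and MGA also pair with MAX and repress through the same sites. MLX pairs instead with MondoA (Mlxip), ChREBP (Mlxipl), MNT and some MXD proteins, and so ties the network to glucose sensing. In T cells, receptor signals raise MYC, which is required for the growth and metabolic shift before division.

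The E-box that these factors bind was also looked for in front of the network's own genes, in RefSeq promoters of build GRCm38.p6 that run from 250 bases before to 50 bases after a start site. Of the 11 network genes, 10 had an entry (all but Myc), and 5 of these 10 held CACGTG, which reads the same on both strands. Across 27025 genes with an entry, 8.09% held it, and across the 8592 of those that were tested for expression, 11.8% did. The network genes had 13 windows, of which 5 (38.5%) held the motif, against 7.15% of all 32851 windows. The 5 stretches are shown because they are the network's own binding motif in the network's own promoters, 5′ to 3′ on the gene's strand, with the E-box in capitals.
Max: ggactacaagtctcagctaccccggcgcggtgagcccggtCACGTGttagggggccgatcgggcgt
Mxd4: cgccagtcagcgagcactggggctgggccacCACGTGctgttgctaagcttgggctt
Mnt: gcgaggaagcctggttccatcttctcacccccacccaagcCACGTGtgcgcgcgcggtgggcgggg
Mlx: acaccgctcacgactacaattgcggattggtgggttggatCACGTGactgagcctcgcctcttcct
Mlxipl: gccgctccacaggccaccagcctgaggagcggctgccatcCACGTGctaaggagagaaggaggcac
These stretches lie at chr12:76962226-76962291 (Max, minus strand), chr5:34187904-34187960 (Mxd4, minus strand), chr11:74830761-74830826 (Mnt, plus strand), chr11:101087210-101087275 (Mlx, plus strand) and chr5:135089752-135089817 (Mlxipl, plus strand). In Max the motif begins 3 bases before the start site and crosses it. It begins 40 bases before the start in Mlx, 98 in Mlxipl, 123 in Mnt and 219 in Mxd4, and Mlxipl has another window that lacks it. The windows of Mxi1, Mga, Mxd1, Mxd3 and Mlxip hold no CACGTG, which says only that these letters are not in them. A match is a description of sequence and not of binding.

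Expression is given as counts scaled to a fixed total (CPM), each library's counts scaled to its total after the TMM correction for composition. A call means an adjusted p below 0.05 by edgeR's quasi-likelihood test over 11312 genes. Library totals ran from 4168438 to 5495521 counts. In all, 1620 genes (14.3%) were called higher after stimulation and 1366 (12.1%) lower, with a median log2 fold change of -0.06. With library totals and no TMM factors the median was -0.35 with 1193 genes called higher and 2250 called lower. Of the sorted cells' defining markers, Cd3e, a chain of the T cell receptor complex, was at 119 and 180 CPM in resting libraries 4 and 5, and after stimulation at 295 and 167 CPM. Cxcr6, whose locus carries the GFP, lay at 1102 CPM or more at rest and fell by 1.26 on the log2 scale (adjusted p = 0.0190, a call lost without resting library 4 or tetramer library 4), and Zbtb16, which encodes PLZF, was at 55.7 CPM or more in all 4 libraries. Markers of other cells were present, and some of them were called different between the groups. The 3 red cell genes summed to 89.9 and 247 CPM at rest and to 19.2 and 45.9 CPM after stimulation, and the 2 neutrophil genes to 19.5 and 18.0 against 1.84 and 3.24 CPM. The endothelial gene Pecam1 went from 75.0 and 28.8 to 10.2 and 15.8 CPM. The 2 hepatocyte genes in the table summed to 24.9 and 37.2 against 8.18 and 11.5 CPM, the 4 B cell genes to 21.3 and 29.7 against 13.3 and 16.6 CPM, and the 3 macrophage genes to 20.3 and 25.6 against 8.18 and 9.71 CPM. Only 1 hepatocyte gene and 1 macrophage gene were called, both lower. The 4 dendritic cell genes summed to 262 and 266 against 76.3 and 270 CPM, nearly all of it Xcr1 (257 and 250 against 65.3 and 249.4 CPM). Of these 4, Itgax and Zbtb46 were called higher (log2 fold changes of 3.16 and 1.99). Of the 4 B cell genes 1 was called higher and 1 lower. The 4 islet hormone genes (Ins1, Ins2, Gcg and Iapp) summed to 259 and 961 CPM at rest and to 229 and 421 CPM after stimulation, highest in resting library 5. None of these 4 was called. The part of such cells in the network results was not tested. In these bulk libraries fewer cells of a type and less RNA per cell cannot be told apart.

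Among the 7 members, Myc rose, Mxi1 fell, and Max, Mxd4, Mnt, Mga and Mlx did not pass the test. One rise in 7 and one fall in 7 stand beside backgrounds of 14.3% and 12.1% of genes, so the number of members called is no result about the network. In either direction 26.4% of genes were called, and 2 of 7 members. The median log2 fold change of the members was -0.08, beside -0.06 over all genes tested. Tetramer libraries lay above both resting libraries for 2 members and below both for 3, where 31.6% and 33.7% of all tested genes did so (65.2% in either direction).

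**Figure D1:**
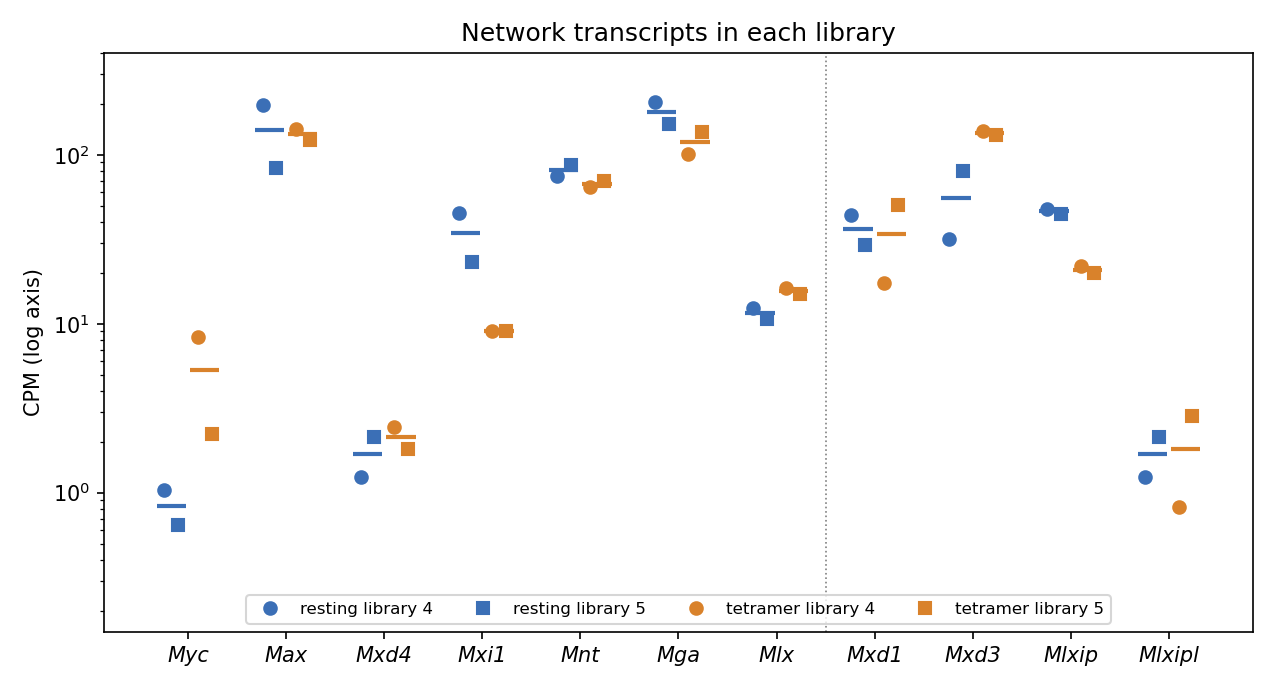
CPM on a log axis of the 7 members (left of the dotted line) and 4 other network genes in each library, with blue for resting, orange for tetramer, circles for library 4, squares for library 5 and bars for group means. Myc and Mxd3 lie higher in both tetramer libraries and Mxi1 and Mlxip lower, while the groups of Max, Mxd4, Mxd1 and Mlxipl overlap.

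Myc, the activating partner, was scarce in every library. It had 5 and 3 counts in resting libraries 4 and 5 (1.04 and 0.641 CPM), against 41 and 11 counts after stimulation, in tetramer libraries 4 and 5 (8.39 and 2.23 CPM). Both tetramer libraries were thus above both resting libraries, and tetramer library 4 held most of the tetramer counts. Myc passed the filter on low counts through the tetramer libraries alone. Its entry into the test therefore depended on the group where it was high. The mean went from 0.838 ± 0.279 to 5.31 ± 4.36 CPM (SD, n = 2 each), a rise of 2.62 ± 0.80 (SE) on the log2 scale (edgeR adjusted p = 0.0163). From the counts alone, 8 at rest and 52 after stimulation, the scaled ratio was 6.29 with an exact (Clopper-Pearson) 95% interval of 2.97 to 15.3, which covers counting error only. The call rested on tetramer library 4. Without it Myc did not pass the filter on low counts, and with no such filter its log2 fold change was 1.39 ± 1.12 (adjusted p = 0.515). The adjusted p was 0.0511 by limma-voom, and it ranged from 0.00873 to 0.0296 when each of the other libraries was left out.

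Max, the common partner through which MYC, MXD, MNT and MGA bind DNA, showed no shift beyond its spread. It was at 197 and 83.1 CPM in the resting libraries and at 141 and 123 CPM in the tetramer libraries. Its resting libraries differed 2.37-fold and enclosed both tetramer values, so the groups overlap. The log2 fold change was -0.08 ± 0.39 (adjusted p = 0.896), and its sign turned with the library left out, from -0.55 without resting library 5 to 0.68 without resting library 4. The means were 140 ± 80.5 CPM at rest and 132 ± 13.2 CPM after stimulation (SD, n = 2 each).

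Of the MAX-binding repressors, Mxi1 was the member that fell. It was at 45.4 and 23.1 CPM at rest and at 9.003 and 9.103 CPM after stimulation. The tetramer libraries nearly coincided and lay below both resting libraries, which differed 1.97-fold. The mean went from 34.2 ± 15.8 to 9.05 ± 0.0703 CPM (SD, n = 2 each), a log2 fold change of -1.92 with an SE of 0.50 (edgeR adjusted p = 0.00646). Its direction held with any library left out (-2.30 to -1.33), but 3 fits with a library left out missed the threshold (adjusted p of 0.0620 in the absence of resting library 4, 0.0816 of tetramer library 4 and 0.0505 of tetramer library 5).

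Mxd4, another MXD repressor, was also scarce. It had 6 and 10 counts at rest and 12 and 9 after stimulation, or 1.24 and 2.14 against 2.46 and 1.82 CPM. The groups overlap, and the log2 fold change, 0.34 ± 0.72, was not called (adjusted p = 0.763 by edgeR). The interval of its scaled count ratio, 0.631 to 2.60, shows how little 16 and 21 counts can resolve.

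Mnt, a repressor that pairs with MAX or MLX, was at 75.2 and 86.5 CPM at rest and at 64.3 and 70.2 CPM after stimulation. Its tetramer libraries were lower than both resting libraries by a small margin, with a log2 fold change of -0.27 ± 0.37 (adjusted p = 0.631). Mga, a large factor that carries both a T-box and a helix-loop-helix zipper and recruits Polycomb complex PRC1.6, was at 207 and 152 CPM at rest and at 101 and 136 CPM after stimulation. These groups did not overlap either, but the log2 fold change of -0.60 ± 0.37 missed the threshold (adjusted p = 0.232). Leaving out 1 library at a time moved it between -0.82 and -0.35.

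Mlx, the partner of MondoA and ChREBP, was at 12.4 and 10.7 CPM at rest and at 16.37 and 14.97 CPM after stimulation. Both tetramer libraries were above both resting libraries, at a log2 fold change of 0.44 ± 0.52 that was not called (adjusted p = 0.559). In the GENCODE M21 annotation 385 exon bases of Mlx, 19.4% of them, also lie in exons of Psmc3ip on the opposite strand. Use of strand in counting was not given in the sources used here, so reads there cannot be assigned to 1 of the genes. Psmc3ip itself was at 3.31 and 2.56 CPM at rest and at 19.6 and 10.3 CPM after stimulation.

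**Figure D2:**
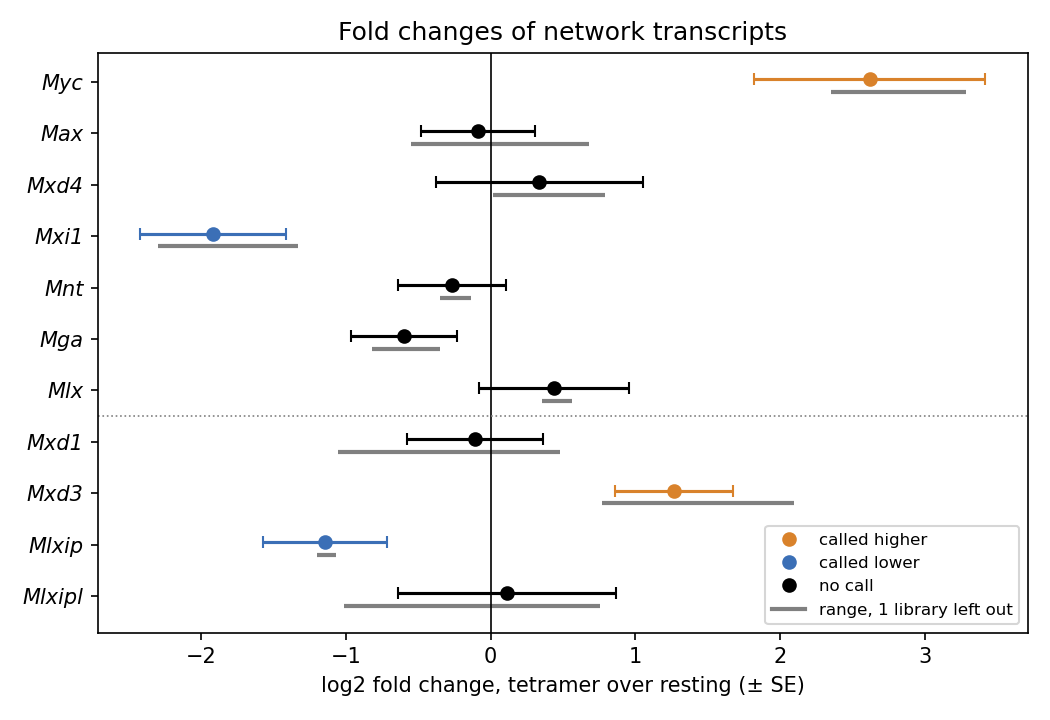
Points show each network gene by its log2 fold change from resting to tetramer, with its SE, in orange where called higher, blue where called lower and black where not called, with a grey line for the range when 1 library is left out. For Myc the grey line, 2.35 to 3.29, omits the fit without tetramer library 4, in which it was not tested. Ranges of Max, Mxd1 and Mlxipl cross 0.

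The 4 other network genes gave 1 call higher (Mxd3) and 1 lower (Mlxip), beside 14.3% and 12.1% of all genes. Mxd1 and Mlxipl were not called. These counts are no result about the network. Mxd3, an MXD repressor known from S phase of dividing cells, was at 31.9 and 79.7 CPM at rest and at 138 and 131 CPM after stimulation. The tetramer libraries were close to each other and above both resting libraries, which differed 2.50-fold. It rose by 1.27 ± 0.41 on the log2 scale (edgeR adjusted p = 0.0225), a call not kept in the absence of resting library 4 (0.77, adjusted p = 0.233), of tetramer library 4 (adjusted p = 0.121) or of tetramer library 5 (0.0572), nor with library totals (0.0596) or a fold of 1.5 (0.0766). Exons of Mxd3 share 105 bases, 7.91% of its length, with Prelid1 on the opposite strand. Prelid1, a mitochondrial lipid transfer protein, was at 94.1 and 212 CPM at rest and at 478 and 285 CPM after stimulation. Its part in the Mxd3 counts was not tested.

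Mlxip, which encodes MondoA, was at 47.4 and 44.9 CPM at rest and at 21.9 and 19.8 CPM after stimulation. The libraries of each group nearly coincided and the groups were far apart relative to that spread. Its log2 fold change was -1.15 ± 0.43, but the adjusted p of 0.0481 lay at the threshold. It was not called without any 1 of the libraries (0.0703 to 0.255), although the change kept to between -1.20 and -1.07. Other settings also lost the call, namely DESeq2 size factors in edgeR (adjusted p = 0.0526), no filter (0.0514), a stricter filter (0.0547), limma-voom (0.0504) and a fold of 1.5 (0.133).

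Mxd1, the MXD protein known from terminal differentiation, was at 43.7 and 29.1 CPM at rest and at 17.4 and 50.2 CPM after stimulation. The tetramer libraries lay on either side of the resting ones, and the log2 fold change of -0.11 ± 0.47 spanned -1.06 to 0.48 across fits lacking 1 library. Mlxipl, which encodes ChREBP, had 6 and 10 counts at rest and 4 and 14 after stimulation. Its log2 fold change was 0.11 ± 0.75 and its sign depended on the scaling, with -0.16 under library totals.

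CPM was divided by kilobases of exon to order the genes, an order that assumes reads spread evenly over those exons. In these units Max led at rest with 71.5 ± 41.1 CPM per kb, followed by Mxd3 at 42.1 ± 25.5, Mnt at 17.6 ± 1.75 and Mga at 12.9 ± 2.75 (SD, n = 2 each). Max and Mxd3 overlapped at rest. Mxd1, Mlx, Mlxip and Mxi1 followed at 7.80 ± 2.22, 5.81 ± 0.621, 5.71 ± 0.225 and 5.14 ± 2.37 CPM per kb, and each of these overlapped the next. Mlxipl, Mxd4 and Myc were lowest at rest, at 0.467 ± 0.175, 0.435 ± 0.163 and 0.343 ± 0.114 CPM per kb, again without separation between neighbours. After stimulation Mxd3 came first at 101 ± 3.97 CPM per kb and Max next at 67.5 ± 6.72, and per kb these no longer overlapped. In CPM they did overlap after stimulation, with Mxd3 at 138 and 131 and Max at 141 and 123. Their order per kb thus depends on the exon lengths. The part in this order of reads from the exon bases that Mxd3 shares with Prelid1 was not tested. Mnt (14.6 ± 0.915) lay above Mga, Mlx and Mxd1 (8.51 ± 1.75, 7.88 ± 0.498 and 7.24 ± 4.97), of which neighbours overlapped. Mlxip, Myc and Mxi1 followed at 2.58 ± 0.181, 2.17 ± 1.78 and 1.36 ± 0.0106 CPM per kb, with Myc overlapping both. Mxd4 and Mlxipl overlapped at 0.551 ± 0.116 and 0.504 ± 0.393 CPM per kb. Exon lengths come from GENCODE M21, of another build than the mm9 of the submitters' processing notes. The placement of reads along a transcript was not given in the sources used here.

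Myc was then set against each other network gene within a library, since the ratio of 2 genes does not depend on library scaling. Relative to Max, log2 of Myc counts over Max counts was -7.57 and -7.02 at rest (libraries 4 and 5) and -4.07 and -5.79 after stimulation. Both tetramer libraries were above both resting libraries, by 2.36 on average. The shift relative to Mxi1 was the largest of the 6 members, with log2 ratios of -5.45 and -5.17 at rest and -0.10 and -2.03 after stimulation, a difference of 4.24. Shifts relative to the other members were 3.004 (Mga), 2.67 (Mnt), 2.03 (Mxd4) and 1.96 (Mlx), and the groups did not overlap for any of the 6. The exact two-sided permutation p was 0.333 for each of the 6, the smallest that 2 against 2 libraries allow. These ratios share the Myc counts and are not separate evidence. The share of all genes whose ratio to Myc separates the groups was not computed. The lack of overlap is therefore no result about the members.
Against Mxd3 the ratios overlapped, at -4.94 and -6.96 at rest and -4.04 and -5.88 after stimulation. With single libraries left out, the shift relative to Mxi1 ranged from 3.28 to 5.21 and that relative to Max from 1.51 to 3.22.

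**Figure D3:**
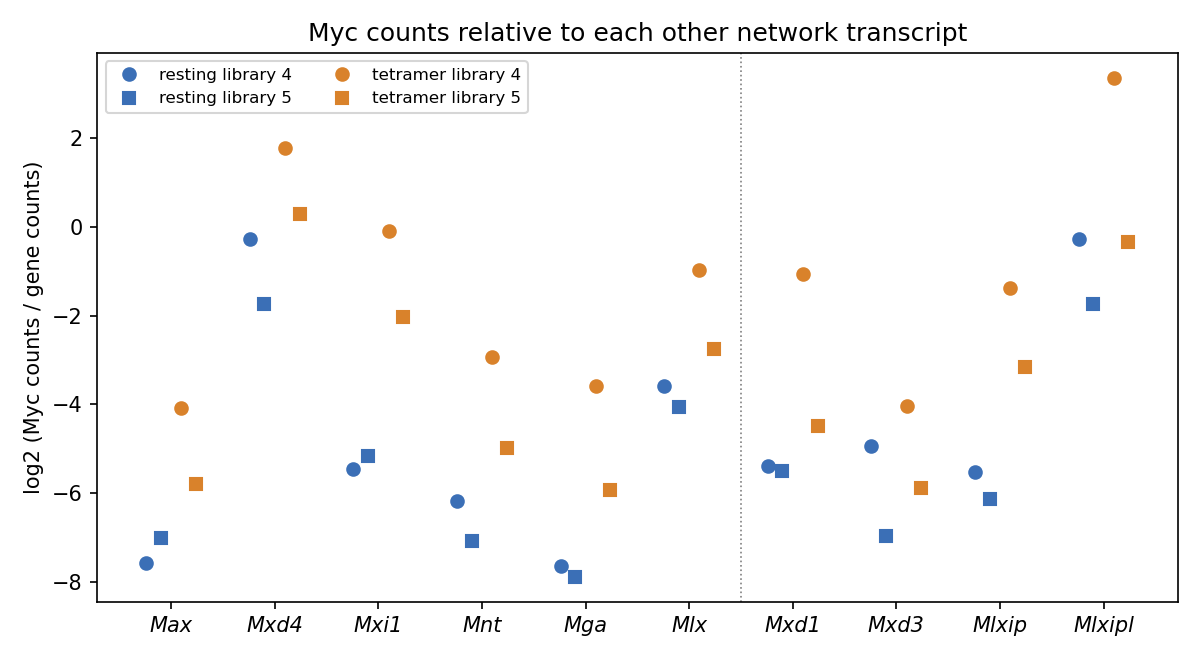
Log2 ratio of Myc counts to the counts of each other network gene in the same library, with blue for resting, orange for tetramer, circles for library 4 and squares for library 5. Both tetramer libraries lie above both resting ones for the 6 members left of the dotted line and overlap the resting ones for Mxd3 and Mlxipl.

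Most of the listed genes known to be induced by MYC rose. The list was chosen with earlier results of these data known, so its share does not speak for all genes induced by MYC. Of 32 established targets 29 were called higher and 0 lower by edgeR (0 lower at an unadjusted p below 0.05, and 0 by DESeq2), against 14.3% of all genes called higher. Their median log2 fold change was 2.29. Bcat1, a branched-chain amino acid transaminase, went from 1.24 and 1.28 to 41.7 and 27.7 CPM. Srm, spermidine synthase, went from 11.6 and 12.8 to 365 and 192 CPM, and Rrp12, a ribosome assembly factor, from 2.69 and 4.27 to 68.8 and 62.1 CPM. Tfrc, the transferrin receptor, went from 27.8 and 15.8 to 408 and 307 CPM. In each of these 4 both tetramer libraries were many times above both resting ones. These 4 were named for having the largest changes of the called targets, so this separation is no separate result. Their log2 fold changes were 4.75 ± 0.62, 4.51 ± 0.45, 4.22 ± 0.51 and 4.03 ± 0.43 (SE), with edgeR adjusted p from 5.85e-08 to 3.75e-06, and each was called under every alternative that gave a value. The stricter filter, 10 counts in every library, removed Bcat1. Targets not called were Polr1b (-0.44 ± 0.46), Slc3a2 (0.63 ± 0.38) and Tfap4 (1.48 ± 0.72), named after their values were seen. Without tetramer library 4, 23 targets were called higher. Of the 24 targets with a RefSeq promoter entry 7 (29.2%) held CACGTG in the same window as above. Npm1, Nme1 and Eif4a1 are among the called targets, and copies of such genes elsewhere in the genome can share their reads.

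Genes reported as repressed by MYC went both ways. Of 10 tested, 3 fell and 3 rose (12.1% and 14.3% of all genes), with a median log2 fold change of -0.44. Ccng2, an atypical cyclin of quiescent cells, had 78 and 42 counts at rest and 4 and 4 after stimulation, and fell by 3.91 on the log2 scale. Cdkn1b, the cell cycle inhibitor p27, fell from 359 and 371 to 60.4 and 64.1 CPM, and Tob1, an antiproliferative protein, from 18.9 and 13.0 to 3.27 and 3.44 CPM. Gadd45g, a stress-response gene, moved against the list's name, from 4.14 and 10.3 to 77.6 and 94.9 CPM. So did Cdkn1a and Gadd45b, with log2 fold changes of 1.96 ± 0.43 and 1.81 ± 0.42, named after their values were seen. The call of Tob1 was lost without tetramer library 4 or 5, with a highest adjusted p of 0.116.

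Of the 5 listed targets of MLX and MondoA 1 was called higher and 1 lower, beside 14.3% and 12.1% of all genes. Txnip, the thioredoxin-interacting protein that MondoA induces when glucose is plentiful, fell from 51.6 and 34.8 to 2.86 and 3.03 CPM, a log2 fold change of -3.86 ± 0.54. Hk2, hexokinase 2 of the study's title, was at 1.45 and 2.35 CPM at rest and at 50.5 and 21.2 CPM after stimulation. Arrdc4, a relative of Txnip, was at 3.11 and 3.85 against 3.48 and 5.66 CPM (adjusted p = 0.692). Arrdc3 and Pfkfb3 had log2 fold changes of -1.15 ± 0.66 and 0.25 ± 0.40, neither called. Without resting library 4 a further member was called lower, 2 in all.

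Among 18 MYC coactivators 4 were called higher and 0 lower (0 lower at an unadjusted p below 0.05 and 0 by DESeq2), with a median log2 fold change of 0.24. Of all genes tested 14.3% were called higher and 12.1% lower. The helicases Ruvbl1 and Ruvbl2, which serve in the TIP60 and INO80 complexes, went from 14.5 and 18.2 to 63.4 and 66.3 CPM and from 7.67 and 12.2 to 56.1 and 28.9 CPM. Wdr5, a chromatin adaptor that contacts MYC, changed by 1.36 ± 0.48 and Actl6a, an actin-like subunit of the same complexes, by 1.01 ± 0.37 on the log2 scale. Only 1 coactivator was called higher without tetramer library 4 and 2 without tetramer library 5, and with library totals 2 were higher and 1 lower.

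The listed repressor partners of MXD, MNT and MIZ1 (encoded by Zbtb17, which is itself in the list) showed 1 rise and 1 fall among 14 tested. All genes gave 14.3% and 12.1%, and the median of the list was -0.03. Sin3a, the scaffold that MXD proteins bind, was at 88.0 and 70.3 CPM at rest and at 29.5 and 40.5 CPM after stimulation, or -1.18 ± 0.40 on the log2 scale (edgeR adjusted p = 0.0295). The histone-binding protein Rbbp7 was at 102 and 98.9 CPM at rest and at 330 and 261 CPM after stimulation (1.56 ± 0.37). Neither was called without tetramer library 4, and Sin3a was also lost without resting library 4 or tetramer library 5. Library totals gave 1 higher and 3 lower, as did the fit without resting library 5.

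Partners of MGA and MAX in PRC1.6 gave 1 rise and 2 falls among 13, beside the same shares of all genes. Tfdp1, the dimerisation partner of E2F proteins, had 4 and 4 counts at rest and 120 and 36 after stimulation, a log2 fold change of 4.20 ± 0.77. It was higher in tetramer library 4 than in library 5. The ubiquitin ligase Rnf2 (RING1B) was at 151 and 96.4 CPM at rest and at 46.0 and 53.6 CPM after stimulation, and the methyltransferase Ehmt2 (G9a) at 35.6 and 47.4 against 20.7 and 11.9 CPM. None of the 3 was called without tetramer library 4, and 1 member was called lower without resting library 4 or without resting library 5, and 0 without tetramer library 5.

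Of 15 tested genes for turnover of the MYC protein 2 rose and 2 fell, again beside 14.3% and 12.1% of all genes. The row C330027C09Rik, an older symbol of Cip2a, which keeps MYC from degradation, went from 0.622 and 1.28 to 5.32 and 5.46 CPM. The ligase adaptor Trpc4ap went from 81.6 and 90.6 to 36.6 and 20.8 CPM and the F-box protein Fbxo32 from 50.1 and 43.0 to 12.5 and 20.6 CPM. Fbxw7, the best known ligase subunit for MYC, was at 44.7 and 55.1 against 77.3 and 97.1 CPM and was not called (0.80 ± 0.38, adjusted p = 0.120; named after its values were seen). Without tetramer library 4 or tetramer library 5 this group held 0 rises and 1 fall, and with library totals 1 rise and 3 falls.

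Regulators of Myc transcription, mRNA and translation rose in 4 of 12 cases and fell in 0 (0 at an unadjusted p below 0.05, and 0 by DESeq2), beside 14.3% of all genes called higher and 12.1% lower, with a median log2 fold change of 0.69. Nme2 went from 120 and 159 to 989 and 553 CPM, although it lies beside its near-copy Nme1. Eif4e, the cap-binding translation factor, went from 54.5 and 47.0 to 211 and 158 CPM. The RNA-binding proteins Ptbp1 and Ybx1 changed by 1.37 ± 0.37 and 1.25 ± 0.37. Rises numbered 2 without tetramer library 4 and 2 without resting library 5.

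Among 11 other factors that bind E-boxes 1 was called higher and 0 lower, beside 14.3% and 12.1% of all genes. The factor called higher was Bhlhe40, from 2.49 and 10.0 to 33.8 and 36.8 CPM (log2 fold change 2.49 ± 0.56). By DESeq2 0 were called lower, and 1 was lower at an unadjusted p below 0.05. DESeq2 and the stricter filter each called 2 higher, the second being Tfe3 (1.35 ± 0.53, edgeR adjusted p = 0.0568; named after its values were seen). With library totals 2 were called lower. The median was -0.38.

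**Figure D4:**
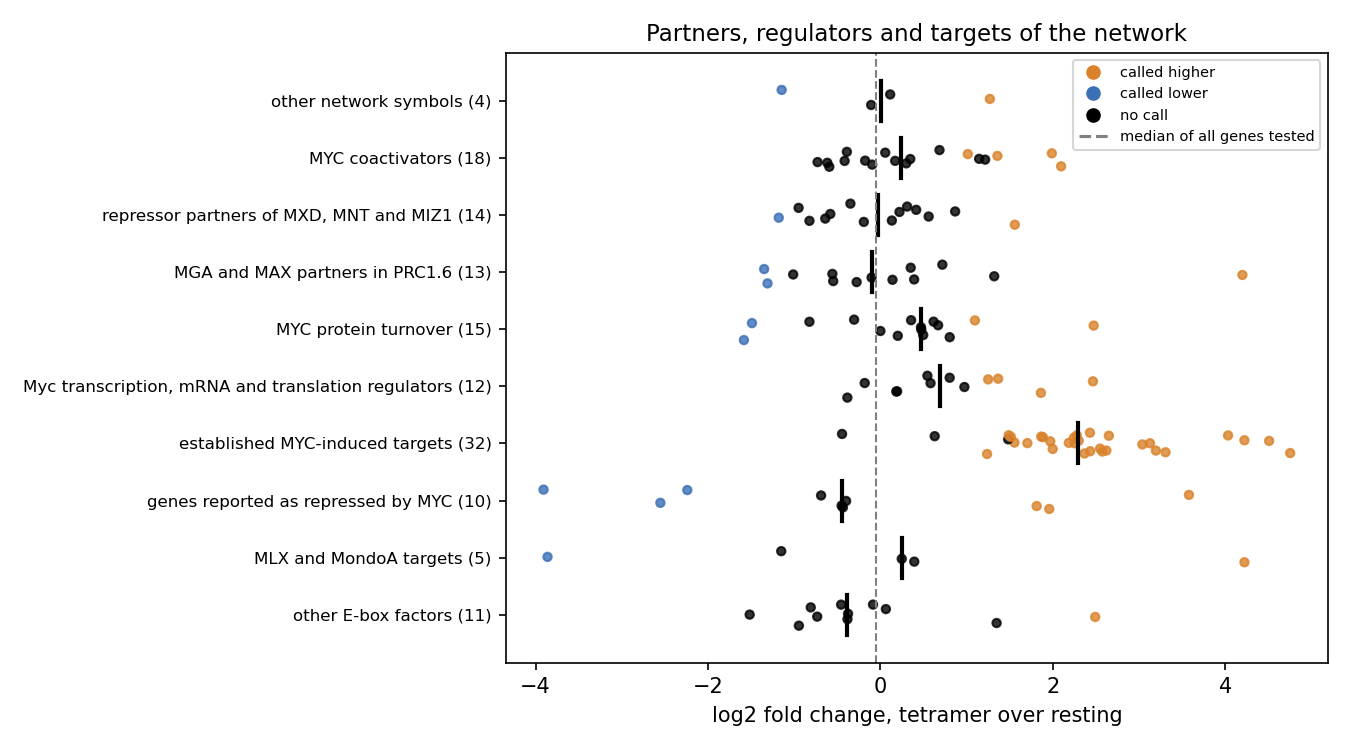
Each point is the log2 fold change (tetramer over resting) of 1 gene in the lists of partners, regulators and targets, with the number tested in parentheses, a black bar at the list's median and a dashed line at the median of all genes tested. The established targets of MYC centre at 2.29, while the medians of the other lists lie between -0.44 and 0.69.

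The genes whose pattern over the 4 libraries was nearest to that of Myc, by Euclidean distance between centred log2 CPM profiles, were Mcm2 (0.33), Mthfd1 (0.36), Ap1s1 (0.36), Hmga1 (0.44) and Slc25a5 (0.44). Mcm2, a subunit of the replicative helicase, was at 18.6 and 17.3 CPM at rest and at 111 and 40.3 CPM after stimulation. Mthfd1, an enzyme of folate metabolism, was at 9.94 and 6.62 CPM at rest and at 53.0 and 22.0 CPM after stimulation. As with Myc, tetramer library 4 was well above tetramer library 5 in both. The genes were picked by likeness to Myc over these same 4 libraries. Neither this pattern nor their reliance on tetramer library 4 is therefore a separate result. All 5 lost their call without tetramer library 4, and with library totals 3 of the 5 remained among the nearest. Nearest to Mxd4 were Fzr1, Taldo1, Mrpl4, Tfpt and Ppih, at distances of 0.03 to 0.11, and none of these was called. In a design of 4 libraries many genes lie close to any profile.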

How the data were processed

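The authors deposited 1 table of raw counts, with a row per gene symbol and 4 columns. Bowtie2, DESeq2 and mm9 are named per the submitters' processing notes, without versions or roles, while the counter and its strand setting were not given in the sources used here. Poly(A) RNA was amplified with 23 cycles of PCR, per the labels' protocols. These protocols name liver or spleen as the source of sorted cells but islets in the RNA step. Columns show the group and a number (4 or 5) that differs from the numbering of the titles, and columns were therefore assigned by group. The table has no count below 1, and 1 row with a cell that is not a number was left out. The test was that of edgeR 4.0.16, run in R 4.3.3 (default filter, TMM factors, quasi-likelihood F test, Benjamini-Hochberg adjustment over 11312 genes, threshold 0.05). It was tried on simulated data with 50 genes changed at each fold. It called 0 of these at 1.5-fold, 2 at 2-fold, 22 at 4-fold and 47 at 8-fold. Far fewer genes changed there than were called here, so these rates need not hold for these data. A gene that was not called may still have changed. The SE was taken from the F statistic. Alternatives were DESeq2 1.42.0, limma-voom (limma 3.58.1), other scaling and filters, a fold of 1.5, a replicate block and leaving out each library. Amplified reads carry no molecular identifiers, so count intervals cover counting error only. The members and all lists were chosen with earlier results of these data known. The rule for named genes took all network genes in the table and, from each list, up to 4 called genes with the largest change. It also took the 5 nearest profiles to Myc and to Mxd4 among genes of at least 10 CPM (prior count of 2 for log2 CPM), and Cxcr6, Cd3e and Zbtb16. Of the genes this rule names, 1 is not reported here by name. Protein sequences were not used here.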

Additional observations from a re-analysis of the deposited data

How the results depend on the processing

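Counts of all genes called depended on both tetramer libraries, with 622 higher and 313 lower without library 4 and 1157 higher and 673 lower without library 5. Leaving out single libraries gave 622 to 1629 genes higher and 313 to 1488 lower, and members called numbered 0 to 1 in each direction, with no member called in either direction without tetramer library 4. In such fits the group left with 1 library was assumed to vary like the other. Lower calls numbered 2250 under library totals and 785 when tested against a fold of 1.5. No member was called higher with the stricter filter, which removed Myc, or by limma-voom, where the log2 fold change of Myc was 2.26 (adjusted p = 0.0511). The value of Myc without tetramer library 4 and with no filter, 1.39, was an alternative chosen after seeing the data. Myc and Mxd4 could not be tested with the stricter filter, nor Myc without tetramer library 4. Leaving out single libraries moved Mxi1 from -2.30 to -1.33 and Max from -0.55 to 0.68, and Max was at 0.041 by limma-voom. Mnt, Mga, Mlx and Mxd4 kept their direction and were not called under any alternative that gave a value. Signs of uncalled genes also turned for Mxd1 (-1.06 to 0.48 with single libraries left out), Mlxipl (-0.16 with library totals, -0.077 by limma-voom, -1.01 to 0.76 with single libraries left out), Mrpl4 (-0.013 with library totals, -0.038 to 0.70) and Ppih (-0.10 with library totals, -0.11 to 0.59). Of 36 named genes outside the members that were called, 13 were called under every alternative that gave a value, and the stricter filter removed 3 of these (Bcat1, Ccng2 and Hk2). The numbers 4 and 5 are shared by the groups, but nothing ties same-numbered libraries to 1 mouse or day, and their deviations correlated at 0.05 across genes. With this number as a replicate block, 1693 genes were higher and 1468 lower, the same number of members was called in each direction, 2 of the other E-box factors were higher, and Max was at 0.039. The cause of these shifts was not tested. Precision is limited by 2 libraries a group and, for Myc, Mxd4 and Mlxipl, by counts of 3 to 41 a library.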
